A study of Mus musculus with 24 samples.

Results

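The genes described here are 10 genes of metal binding and of the oxidant response: the metallothioneins Mt1 and Mt2, the haem oxygenase Hmox1, 5 enzymes known as targets of the transcription factor NRF2 (Srxn1, Txnrd1, Nqo1, Gclc and Gclm), the superoxide-producing oxidase subunit Cybb, and the mitochondrial superoxide dismutase Sod2. They were taken by name from the 54532 genes of the count files. All 10 were found, had reads in every one of the 24 samples and passed the filter on low counts in every comparison. The samples were left gastrocnemius muscle, a calf muscle, of wild-type (WT) C57/BL6 mice of both sexes, with a time of 24 h in the labels. There were 6 groups of 4 samples. Control mice were sedentary and had a pair of 20 µl saline injections at pH 7.2 into that muscle, 5 days apart. Sedentary pain mice had the injections at pH 5.0, the second of them straight after the muscle had been made to contract by electrical stimulation for 6 min. Active pain mice had the same pain model after 8 weeks with running wheels. All mice, controls included, had both injections, and only the pain groups had the contractions, so acid and contraction cannot be told apart. No active group without the pain model was analysed here, so running cannot be separated from its combination with the model. The labels give no age and name no animal for a sample, so that p-values measure the spread between these samples, which may be technical.

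Metallothioneins are small proteins in which cysteines bind zinc and copper, and their genes are switched on by metals through the factor MTF1, by glucocorticoids and by oxidants. NRF2, encoded by Nfe2l2, is held back by KEAP1. When cells meet oxidants or electrophiles it accumulates and switches on enzymes that make glutathione, regenerate thioredoxin and peroxiredoxins and break down haem. Muscle fibres, resident cells and incoming leukocytes all use these genes, whereas CYBB is the catalytic subunit of the oxidase with which phagocytes make superoxide.

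Mt1 and Mt2 are neighbours on mouse chromosome 8 (build GRCm38.p6), at 94179082 to 94180327 and at 94172664 to 94173568, both on the plus strand. The coding sequences of the GENCODE transcripts Mt1-201 and Mt2-201, each in 3 exons, are printed because the cysteine codons, in capitals, are what makes the products metal binders, and because so similar a pair raises the question whether reads can be told apart.
Mt1: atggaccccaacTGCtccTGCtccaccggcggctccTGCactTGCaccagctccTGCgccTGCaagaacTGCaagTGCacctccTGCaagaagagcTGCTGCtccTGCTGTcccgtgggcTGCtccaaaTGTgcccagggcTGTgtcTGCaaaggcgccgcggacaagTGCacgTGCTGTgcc
Mt2: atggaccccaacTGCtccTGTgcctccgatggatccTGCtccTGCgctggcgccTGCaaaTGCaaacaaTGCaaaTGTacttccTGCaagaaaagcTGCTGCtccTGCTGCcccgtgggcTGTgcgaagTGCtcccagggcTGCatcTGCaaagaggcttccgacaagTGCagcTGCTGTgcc
Without the stop codon each has 61 codons, of which 20 are cysteine codons, and all 20 stand at the same place in both genes. Of the 183 bases 145 were identical (79.2%), and 33 of the 61 codons were the same. The longest run shared by any transcripts of the pair was 20 bases, against reads of 100 bases, so a whole read from one gene cannot match the other without mismatches.

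The 250 bases before the TATAAA box of each gene were searched on both strands for the core of the metal response element that MTF1 is known to bind, spelled TGCACNC or TGCGCNC. Each gene had 5 matches. They are shown with 4 bases on either side, the match in capitals, because they are the letters through which metal is known to reach these genes.
Mt1 site 1: gctgTGCACACtggc
Mt1 site 2: gctcTGCACTCcgcc
Mt1 site 3: aaagTGCGCTCggct
Mt1 site 4: tgctGGGTGCAaacc
Mt1 site 5: ccttTGCGCCCggac
Mt2 site 1: gggcGTGTGCAggct
Mt2 site 2: ggtcGTGCGCAggcc
Mt2 site 3: gggcGTGTGCAggcg
Mt2 site 4: gggcGCGTGCAtggt
Mt2 site 5: ctttTGCGCTCgacc
The sites end 137, 112, 94, 30 and 16 bases before the box in Mt1 (the printed stretches lie between chr8:94179062 and 94179197) and 178, 124, 70, 51 and 17 bases before it in Mt2 (between chr8:94172564 and 94172739). Site 4 of Mt1 and sites 1 to 4 of Mt2 read as the motif on the opposite strand. Of 32851 windows of 250 bases before the starts that RefSeq annotates on the same build, 21.4% held a match and 0.0822% held 5 or more. In the windows before their own RefSeq starts, which lie upstream of the box, Mt1 had 1 match and Mt2 had 3. Of all windows before RefSeq starts 1.26% held 3 or more. The share with 5 or more belongs to windows before starts and does not give the rarity of 5 matches before a box. In their RefSeq windows Gclm had 2 matches and Srxn1 had 1, while Nqo1, Txnrd1, Sod2 and Cybb had none. The antioxidant response element to which NRF2 is known to bind, spelled TGACNNNGC, was found in 10.2% of all such windows. It had 1 match in the windows of Gclm, Mt2 and the second of 3 starts of Txnrd1, and none in those of Srxn1, Nqo1, Sod2, Cybb and Mt1. In the 250 bases before the TATAAA box Mt1 and Mt2 each had 1 match. A match is a string of letters and says nothing of binding in these muscles, and a missing match says only that the letters are not in that window. Hmox1 and Gclc had no entry among the RefSeq windows.

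Between 17612139 and 34039699 reads per sample were assigned to genes. Levels are given as CPM, read counts put on a common scale of library size and composition, which do not allow for gene length, and changes as log2 fold changes ± SE. A gene is called where edgeR's quasi-likelihood test gave a Benjamini-Hochberg adjusted p under 0.05 over all genes tested. The 8 fibre markers summed to between 94128 and 217456 CPM in every sample, the level of a tissue that is mainly muscle. Replicates 1 and 2 of every group had low library numbers in their file names and replicates 3 and 4 had high ones. What these numbers stand for is not given in the sources used here, and some results are also printed within each pair of replicates.

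Female sedentary pain muscle carried far more metallothionein mRNA than female control muscle. Mt1 was counted at 6.54, 9.76, 23.9 and 18.4 CPM in the 4 female controls and at 177, 735, 87.7 and 356 CPM in the 4 female sedentary pain samples. Mt2 was at 2.82, 5.76, 5.86 and 8.19 CPM in the controls and at 185, 702, 137 and 495 CPM in sedentary pain. The groups did not overlap for either gene, and replicate 2 of the pain group was the highest for both. Mt1 rose by 4.50 ± 0.68 on the log2 scale, a 22.7-fold difference (adjusted p = 0.0026), and Mt2 by 6.04 ± 0.71, which is 65.8-fold (adjusted p = 0.0023). Without pain replicate 2 the change in Mt1 was 3.82, still called. Within replicates 1 and 2 it was 5.79 and within replicates 3 and 4, whose controls were higher, it was 3.39, both called. In bulk muscle a larger number of cells that carry an mRNA and more of it per cell cannot be told apart.

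Along with the metallothioneins, 3 others of the 10 genes rose in female sedentary pain: Hmox1, Srxn1 and Cybb. None fell. The 5 calls are to be read against a comparison in which 33.5% of the 14511 genes tested were called, 19.6% as higher. The median log2 fold change of the 10 genes was 1.01 and that of all genes tested was -0.02. With 1 surrogate variable in the fit the call was kept for Mt2 (5.03, adjusted p = 0.038) and lost for Mt1 (3.79, adjusted p = 0.083), Hmox1 (1.87, 0.094), Srxn1 (2.18, 0.052) and Cybb (1.35, 0.54), while Nqo1 was called (0.99, 0.041), and 61 of all genes were called. Mt1, Mt2, Hmox1, Srxn1 and Cybb, and none of the other 5 genes, had every pain sample above every control, which held for 15.3% of all genes.

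**Figure D1:**
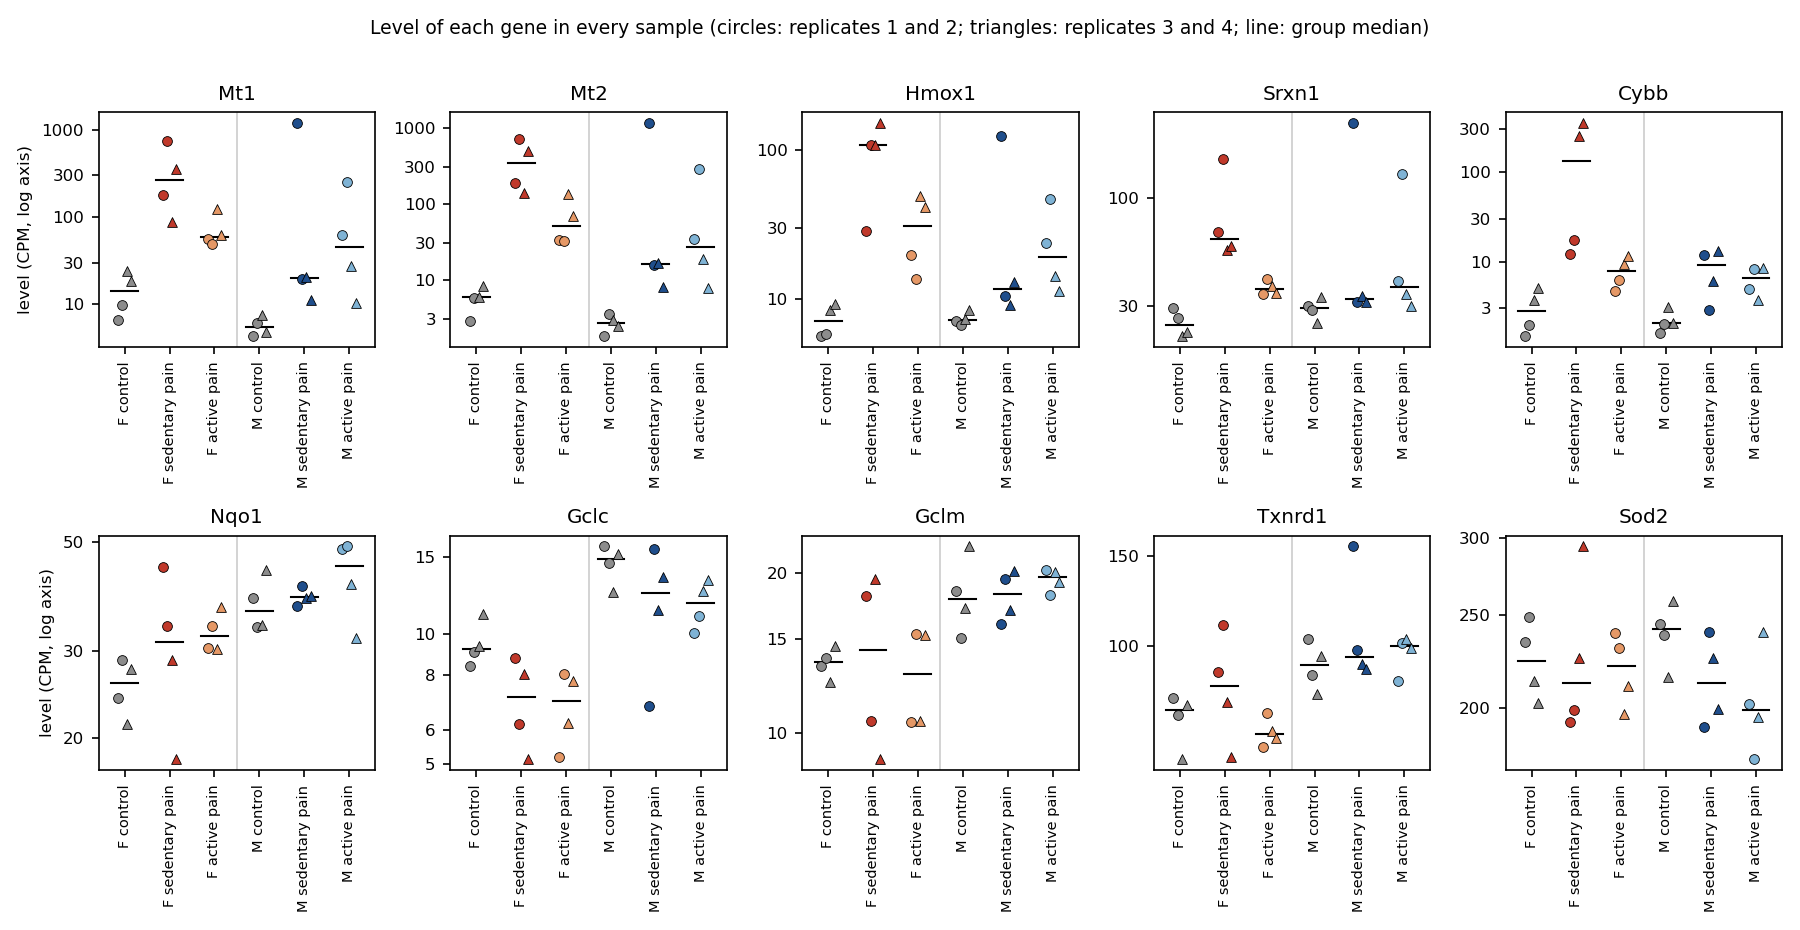
Level of each of the 10 genes in CPM (log axis) in every sample, by sex and group, with circles for replicates 1 and 2, triangles for replicates 3 and 4 and a line at the group median. In the upper row the 4 female sedentary pain samples lie above all 4 female controls for each of the 5 genes, while in male sedentary pain 1 sample stands far above the other 3 for Mt1 (1186 CPM), Mt2, Hmox1 and Srxn1.

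**Figure D2:**
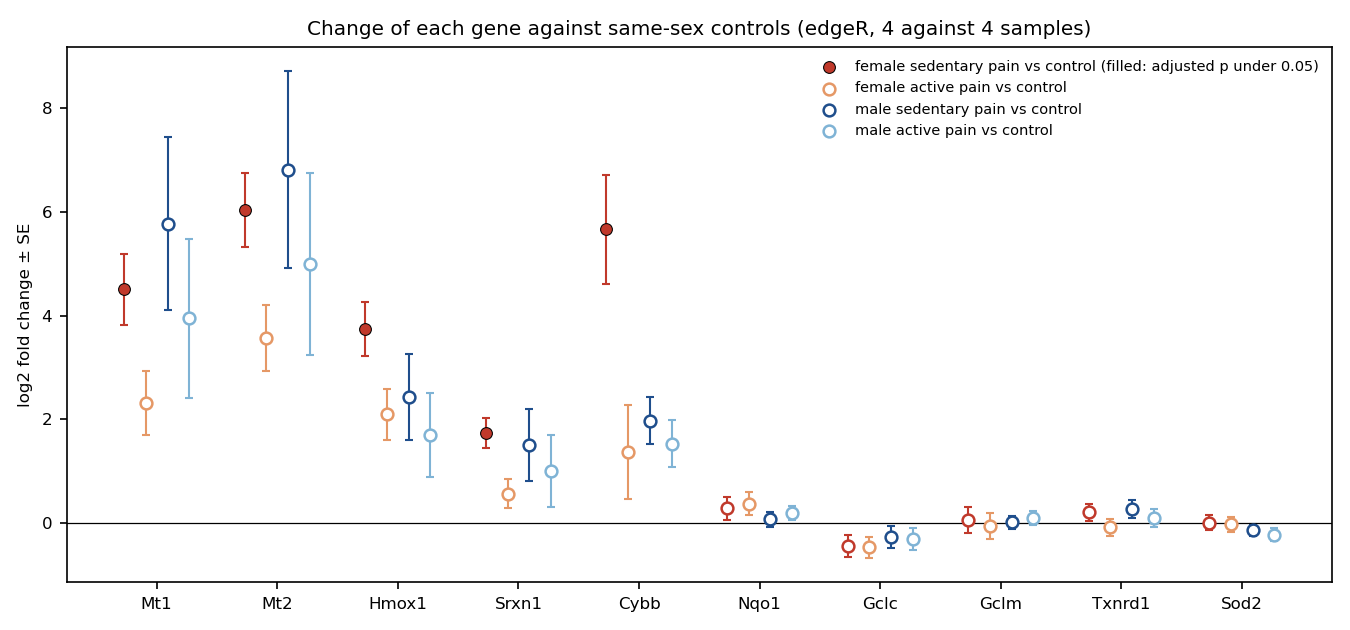
The log2 fold change of each gene against same-sex controls with its SE (vertical axis) in the 4 pain groups; filled points have an adjusted p under 0.05. Only the 5 points of female sedentary pain for Mt1, Mt2, Hmox1, Srxn1 and Cybb are filled, and the male points for Mt1 and Mt2 have the widest bars.

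The balance between the 2 metallothioneins also differed by group, a comparison made after the values were seen and given as a description. The ratio of Mt2 to Mt1 was 0.43 ± 0.14 (SD, n = 4) in female controls and 1.239 ± 0.286 in the sedentary pain group, with all pain samples (0.95 to 1.56) above all controls (0.24 to 0.59). It was 0.86 ± 0.27 in female active pain, 0.47 ± 0.09 in male controls, 0.82 ± 0.11 in sedentary males and 0.78 ± 0.24 in active males. In male sedentary pain the ratio was above every male control in all 4 samples (0.71 to 0.97 against 0.39 to 0.58), including the 3 samples with little of either mRNA.

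Other genes of metal handling were counted in a list of 17, of which 14 were tested. In female sedentary pain 6 rose and none fell, against 19.6% of all genes that rose, with a list median of 0.65. Mt3, a metallothionein known best from brain, rose by 5.99 ± 0.78 (adjusted p = 0.0025), from 0.35 to 1.04 CPM in controls to 12.3 to 70.3 CPM. Slc30a1, the zinc exporter of the cell membrane and a known MTF1 target, was at 4.96 to 5.47 CPM in controls and 9.69 to 11.8 CPM in pain, a rise of 1.01 ± 0.13 (adjusted p = 0.0023). The zinc importers Slc39a1 and Slc39a6 rose by 0.94 ± 0.13 and 1.64 ± 0.26. Mtf1 itself, the metal sensor, had a log2 fold change of -0.47 ± 0.20 (adjusted p = 0.082).

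Glucocorticoids are another known inducer of Mt1 and Mt2, and a list of 10 glucocorticoid-responsive genes was counted beside them. In female sedentary pain 1 rose and 3 fell, with a median of -0.17. With 33.5% of all genes called (19.6% higher and 13.9% lower), 4 calls among 10 genes are near the background. The feedback regulator Tsc22d3 rose by 0.96 ± 0.29 (adjusted p = 0.028). The muscle regulator Klf15 fell by 1.48 ± 0.25 (adjusted p = 0.0030), Fkbp5, a brake on the glucocorticoid receptor, fell by 1.06 ± 0.31 (adjusted p = 0.026) and Klf9 fell by 1.94 ± 0.62 (adjusted p = 0.035). The members that passed the test thus moved in both directions.

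Hmox1, which opens the haem ring and releases iron, was at 5.63, 5.76, 8.40 and 9.23 CPM in female controls and at 28.6, 108, 107 and 151 CPM in female sedentary pain. It rose by 3.74 ± 0.53, or 13.4-fold (adjusted p = 0.0026), and its lowest pain sample, replicate 1, was still above the highest control. Within replicates 1 and 2 the rise was 3.57, not called (adjusted p = 0.051), and within replicates 3 and 4 it was 3.86, called. Of 14 tested genes of haem and iron handling 6 rose and 1 fell, with a median of 0.56, against 19.6% of all genes that rose and 13.9% that fell. Slc11a1, the iron transporter of phagosomes, rose by 4.28 ± 0.79 (adjusted p = 0.0040), and Lrp1, which takes up haem bound to haemopexin, rose by 0.93 ± 0.24 (adjusted p = 0.014). Slc11a2, which imports iron, rose by 0.57 ± 0.15. The iron exporter Slc40a1 fell by 1.12 ± 0.31 (adjusted p = 0.020). The 5 erythroid markers, a measure of blood in the sample, had no call, and their sum was 160.2 to 323.5 CPM in female controls and 141.8 to 492.3 CPM in female sedentary pain.

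Among the 5 NRF2 target enzymes Srxn1 was the one that was called. Srxn1 encodes sulfiredoxin, which restores over-oxidised peroxiredoxins, and was at 29.5, 26.2, 21.5 and 22.6 CPM in female controls and 68.2, 153, 56.3 and 58.9 CPM in female sedentary pain. It rose by 1.73 ± 0.28, or 3.33-fold (adjusted p = 0.0029), without overlap between the groups. Within replicates 1 and 2 the log2 fold change was 1.98, not called (adjusted p = 0.060), and within replicates 3 and 4 it was 1.37, called. The thioredoxin reductase Txnrd1 was at 60.3 to 79.2 CPM in controls and 60.9 to 110 CPM in pain, with a log2 fold change of 0.20 ± 0.16 (adjusted p = 0.34). The quinone reductase Nqo1 ranged from 21.3 to 28.8 CPM in controls and from 18.1 to 44.5 CPM in pain (0.28 ± 0.22, adjusted p = 0.33). Neither of the 2 subunits of glutamate-cysteine ligase, the first enzyme of glutathione synthesis, was called. The catalytic subunit Gclc had -0.44 ± 0.21 (adjusted p = 0.11) and was called lower only when pain replicate 1 was left out, of the 12 samples left out in turn, and the modifier subunit Gclm had 0.06 ± 0.25 (adjusted p = 0.87). The intervals of 2 SE around these 4 changes ran from 0.917-fold to 1.45-fold for Txnrd1, 0.891-fold to 1.65-fold for Nqo1, 0.552-fold to 0.978-fold for Gclc and 0.738-fold to 1.47-fold for Gclm. None of them reached the 3.33-fold of Srxn1.

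A wider list of 32 other NRF2 targets, 28 of them tested, also had calls in both directions: 9 rose and 2 fell, and the list median was 0.09. These 11 calls among 28 genes are near the 33.5% of all genes called. By direction, 19.6% of all genes rose and 13.9% fell. Txn1, the thioredoxin that Txnrd1 recharges, rose by 1.88 ± 0.35 (adjusted p = 0.0041), from 43.0 to 75.2 CPM in controls to 94.7 to 357 CPM. Glutathione reductase, Gsr, rose by 0.69 ± 0.14 (adjusted p = 0.0053). The NADPH-making malic enzyme Me1 fell by 1.298 ± 0.268 (adjusted p = 0.0060), and Gsta3, a glutathione transferase, fell by 4.54 ± 1.12 (adjusted p = 0.013). The adipocyte markers, of which 5 of 6 fell, summed to between 161.3 and 2924.9 CPM in female controls and between 139.6 and 318.8 CPM in sedentary pain, and their part in the falls of Me1 and Gsta3 was not tested.

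Of 11 regulators of the pathway, all tested, 2 rose and 1 fell, no larger a share than the 33.5% of all genes called. Nfe2l2 was at 25.1 to 30.3 CPM in controls and 28.4 to 60.1 CPM in pain (0.56 ± 0.21, adjusted p = 0.060). Its partner in degradation Keap1 had -0.05 ± 0.11 (adjusted p = 0.75), and Bach1, the repressor of Hmox1, had -0.05 ± 0.26 (adjusted p = 0.90). Sqstm1, the p62 protein that binds KEAP1 and is itself an NRF2 target, rose by 1.07 ± 0.19 (adjusted p = 0.0032). Maff, a small partner of NRF2 on DNA, rose by 1.43 ± 0.36 (adjusted p = 0.014) at levels of a few CPM. Cul3, the ubiquitin ligase scaffold that works with KEAP1, fell by 0.84 ± 0.26 (adjusted p = 0.028).

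Of the 10 genes Cybb had the largest ratio of highest to lowest sample in female sedentary pain, 28.9. Its levels were 1.47, 1.94, 3.71 and 5.07 CPM in female controls and 12.3, 17.5, 252 and 354 CPM in female sedentary pain. All pain samples were above all controls, and replicates 3 and 4 were more than 10 times replicates 1 and 2. The fitted rise was 5.67 ± 1.05, or 50.8-fold (adjusted p = 0.0041). Within replicates 1 and 2 alone it was 3.11 and within replicates 3 and 4 alone 6.09, both called, in fits chosen after seeing the data. Without replicate 4 it was 4.93, also called.

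The partners of CYBB in the phagocyte oxidase rose with it. Of 10 tested genes of NADPH oxidases and dual oxidases 6 rose and none fell, against 19.6% of all genes that rose, with a median of 3.26. Cyba, the membrane partner that stabilises CYBB, was at 3.91 to 8.12 CPM in controls and 17.9 to 358 CPM in pain, a rise of 4.53 ± 0.78. The cytosolic subunits Ncf1 and Ncf4 rose by 4.55 ± 0.69 and 5.22 ± 0.82, and the activators Rac2 and Vav1 by 5.11 ± 0.78 and 4.85 ± 0.74. The adjusted p of these 5 genes lay between 0.0026 and 0.0032.

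**Figure D3:**
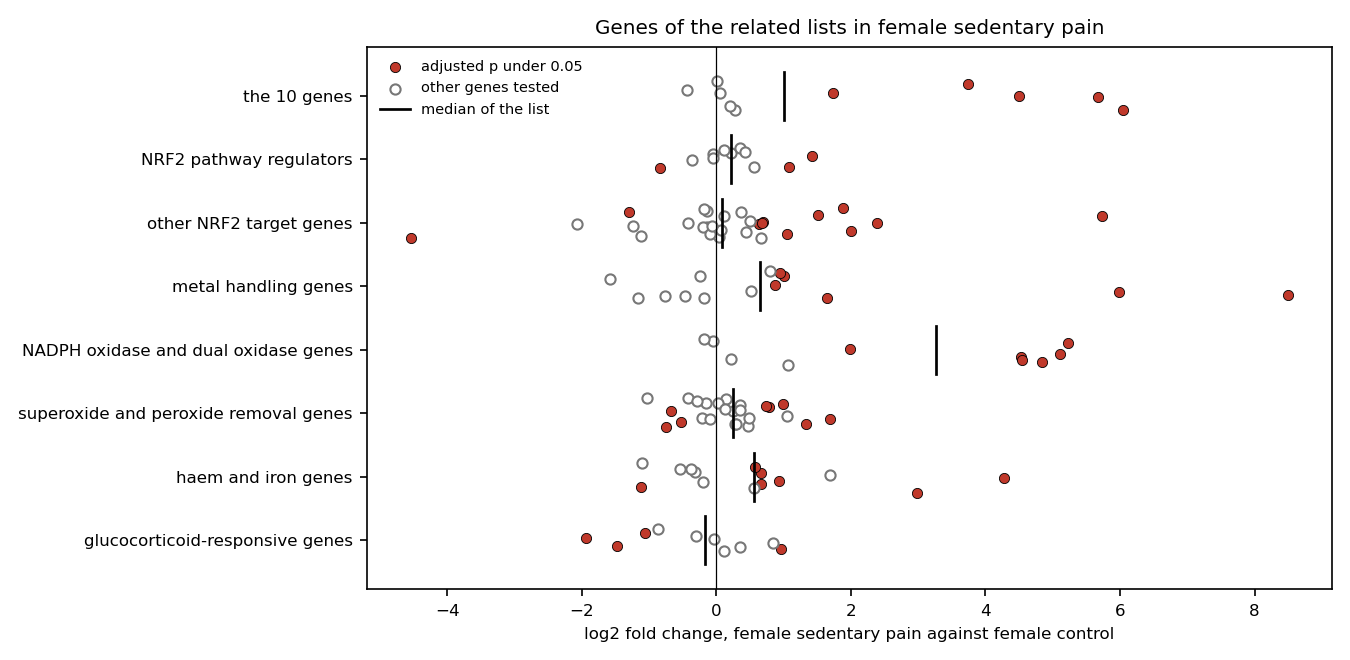
The log2 fold change between female sedentary pain and female control (horizontal axis) of every tested gene of the 10 genes and 7 related lists, with filled points for an adjusted p under 0.05 and a bar at each list's median. The oxidase list has its median at 3.26, while the lists of regulators, other NRF2 targets and peroxide-removing genes have medians between 0.09 and 0.25 with filled points on both sides of 0.

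Sod2, which turns superoxide into hydrogen peroxide in mitochondria, was not called in any comparison. It was at 202 to 249 CPM in female controls and 194 to 294 CPM in female sedentary pain, a log2 fold change of 0.00 ± 0.15 (adjusted p = 0.98) with an interval of 2 SE from 0.819-fold to 1.23-fold. Across all 24 samples its levels ran from 177 to 294 CPM. Of 25 tested genes that remove superoxide and peroxides 5 rose and 3 fell, with a median of 0.25, and 8 calls among 25 genes are near the 33.5% of all genes. The glutaredoxin Glrx rose by 0.79 ± 0.11 (adjusted p = 0.0026), from 17.1 to 20.5 CPM to 28.7 to 34.9 CPM. The glutathione peroxidase Gpx1 rose by 1.68 ± 0.44 (adjusted p = 0.017) and the peroxiredoxin Prdx5 by 1.33 ± 0.38 (adjusted p = 0.021). With 1 surrogate variable in the fit both changed sign, to -0.25 for Gpx1 and -0.27 for Prdx5, neither called. Prdx3, the mitochondrial peroxiredoxin, fell by 0.53 ± 0.15 (adjusted p = 0.023).

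Markers of leukocytes moved with these results. All 12 macrophage and monocyte markers rose in female sedentary pain, against 19.6% of all genes that rose. Among them Cd68 rose by 4.44 ± 0.52 and Itgam by 5.03 ± 0.69. The sum of the 12 was 88.5 to 196.5 CPM in female controls against 454.1, 813.7, 3797.2 and 5171.7 CPM in sedentary pain replicates 1 to 4. Of 10 neutrophil markers 7 were tested and 5 rose, and their sum was 1.2 to 8.1 CPM in controls and 21.5, 259.4, 40.1 and 57.5 CPM in pain. Of 8 lymphocyte markers 3 were tested and rose, and the sum over the list was 0.34 to 2.08 CPM in controls and 3.06, 3.80, 41.6 and 74.0 CPM in pain. Cybb was highest in replicates 3 and 4, the samples with the highest macrophage and lymphocyte sums and the lowest fibre sums of the group (104039 and 94128 CPM). Mt1, Mt2 and Srxn1 were highest in replicate 2, which had the most neutrophil RNA, although Ly6g, the defining neutrophil gene, had at most 8 reads in that group. Mitochondrial genes held 8.22, 3.85, 5.86 and 2.75% of the reads in female sedentary pain and 8.59 to 11.0% in female controls, without overlap. Of the 8 fibre markers 2 fell and of 5 endothelial markers 2 fell, against 13.9% of all genes that fell, and none of either rose. The part of these cells and of RNA quality in the changes was not tested.

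In female active pain none of the 10 genes was called against control, and neither was any of the 14511 genes (0%). The smallest adjusted p of all genes was 0.565, so that a missing call says little. At an unadjusted p under 0.05 there were 4 of the 10 genes, Mt1, Mt2, Hmox1 and Gclc, against 7.03% of all genes, and the DESeq2 test called 124 genes, Mt1, Mt2 and Hmox1 among them. Mt1 was at 56.2, 48.8, 125 and 61.9 CPM, above all female controls, with a log2 fold change of 2.31 ± 0.62 (adjusted p = 0.56). Mt2 was at 33.1, 32.5, 136 and 67.8 CPM (3.56 ± 0.64), and Hmox1 at 19.7, 13.6, 49.2 and 41.6 CPM (2.09 ± 0.50), again without overlap with the controls. The active samples lay between the control and sedentary levels for most of these values, with replicate 3 the highest for all 3 genes.

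Srxn1 was at 34.2, 40.6, 37.5 and 34.9 CPM in female active pain, above all controls as well (0.56 ± 0.28, adjusted p = 0.75). Cybb was at 4.70, 6.25, 9.28 and 11.6 CPM (1.37 ± 0.91, adjusted p = 0.84) and overlapped the controls. Nqo1, at 30.3 to 36.9 CPM, lay above all controls (0.37 ± 0.22), and Gclc, at 5.19 to 8.05 CPM, lay below all of them (-0.47 ± 0.21). In all 5 genes had every active sample above every control, against 3.6% of all genes, and 1 had every sample below, against 1.83%. Txnrd1, Gclm and Sod2 had log2 fold changes between -0.09 and -0.03. The summed macrophage markers were at 217.3 to 474.6 CPM, also above all controls. The neutrophil markers summed to 6.3, 63.8, 113.7 and 6.1 CPM. Replicate 3, the highest for Mt1, Mt2 and Hmox1, was also the highest here. Replicate 2, the next highest here, was the lowest of the group for each of these genes. All 6 adipocyte markers were lower than in controls with an unadjusted p under 0.05, with a median of -2.55 and none called. The part of these cells was not tested.

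Compared directly, the 5 genes that rose in sedentary females were lower in active than in sedentary females, and these calls rest on single choices of samples and settings. The log2 fold changes were -2.20 ± 0.61 for Mt1 (adjusted p = 0.041), -2.48 ± 0.60 for Mt2 (0.033), -1.65 ± 0.48 for Hmox1 (0.047), -1.17 ± 0.28 for Srxn1 (0.033) and -4.29 ± 0.98 for Cybb (0.033). Lower calls made up 9.41% of all genes tested. The active values lay below every sedentary value for Mt2, Srxn1 and Cybb, against 6.37% of all genes, and overlapped for Mt1 and Hmox1. The other 5 genes had log2 fold changes between -0.29 (Txnrd1) and 0.09 (Nqo1). This comparison uses the same sedentary samples as the one against control, so that the pair of results are not independent.

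No calls among the 10 genes remained with no filter on low counts, with the 2 groups fitted alone, with 1 surrogate variable or within replicates 1 and 2. Leaving out 1 sample gave between 0 and 5 calls: 0 without active replicate 1, 2 or 4 or without sedentary replicate 3 or 4, 3 without sedentary replicate 2 or control replicate 2 or 4, 4 without control replicate 1 or 3, and 5 without active replicate 3 or sedentary replicate 1. All 22 alternatives kept the direction for each of the 5 genes, but the call was lost in 15 of them for Mt1 and Hmox1, 11 for Mt2, 10 for Srxn1 and 9 for Cybb. Within replicates 3 and 4 the difference in Cybb was -4.85 and within replicates 1 and 2 it was -1.45.

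Calls in the related lists of that comparison carry the same limits. Of the metal handling genes 5 of 14 fell and none rose, against 9.41% of all genes that fell, among them Mt3, which fell by 4.08 ± 0.70, from 12.3 to 70.3 CPM in sedentary to 0.49 to 3.44 CPM in active females, and Slc30a1, which fell by 0.49 ± 0.13. Of the oxidase genes 6 of 10 fell, such as Ncf4 (-3.13 ± 0.72) and Cyba (-3.22 ± 0.73). Of the other NRF2 targets 3 of 28 fell, Txn1 (-1.39 ± 0.35), Osgin1 (-1.04 ± 0.29) and Gsr (-0.47 ± 0.14), which is near the 9.41% of all genes that fell. Sqstm1 was the only one of the 11 regulators that passed the test (-0.73 ± 0.19). Among the peroxide-removing genes Glrx fell by 0.53 ± 0.11, Gpx1 fell by 1.56 ± 0.44 and Prdx3 rose by 0.56 ± 0.15. Of the 12 macrophage markers 10 fell, as did 2 of the 3 lymphocyte markers tested. All 8 fibre markers had log2 fold changes above 0, with a median of 0.40 and none called, and mitochondrial genes held 6.67 to 11.4% of the reads in active and 2.75 to 8.22% in sedentary females. The part of these in the changes was not tested. The adjusted p of the genes named here lay between 0.033 and 0.048, and each of these calls was lost under at least 9 of the 22 alternatives.

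In males none of the 10 genes was called in any comparison, and no gene of the 14404 tested was (0% in each). The high values came mostly from 1 sample per group. In male controls Mt1 was at 4.33, 6.12, 7.60 and 4.81 CPM and Mt2 at 1.81, 3.57, 2.95 and 2.42 CPM. In male sedentary pain Mt1 was at 1186, 19.2, 20.7 and 11.3 CPM and Mt2 at 1153, 15.7, 16.3 and 8.04 CPM. Replicate 1 was thus far above the next sample for each gene and the highest of all 24 samples, while the other 3 were still above every male control. The fitted log2 fold changes were 5.77 ± 1.67 for Mt1 (adjusted p = 0.31) and 6.81 ± 1.90 for Mt2 (adjusted p = 0.30).

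The same sample stood out for other genes of the set. Hmox1 was at 6.71 to 8.40 CPM in male controls and at 124, 10.4, 9.08 and 12.96 CPM in male sedentary pain, without overlap (2.43 ± 0.83, adjusted p = 0.38). Srxn1 was at 24.8 to 33.1 CPM in controls and at 230, 31.5, 33.7 and 31.6 CPM in sedentary pain (1.51 ± 0.70), so that 3 of 4 samples lay at the level of the controls. Txnrd1 was at 156 CPM in replicate 1 and at 90.4 to 98.5 CPM in the others. Cybb did not follow: it was at 11.996, 2.88, 6.12 and 12.99 CPM against 1.60 to 3.09 CPM in controls, with replicate 4 the highest (1.97 ± 0.45, adjusted p = 0.30). The summed macrophage markers were at 826.7, 128.3, 203.2 and 438.4 CPM in male sedentary pain and 62.7 to 129.5 CPM in controls, and the neutrophil sum was 300.6 CPM in replicate 1 and 2.4 to 2.8 CPM in the other 3. Mitochondrial genes held 4.53% of the reads in replicate 1 and 10.4 to 11.3% in the others. The part of these cells and of RNA quality was not tested.

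Mt1, Mt2 and Hmox1 had all male sedentary samples above all male controls, against 3.95% of all genes. At an unadjusted p under 0.05 there were 4 of the 10 genes against 8.84% of all genes, and DESeq2 called 1 of them, Cybb. Without replicate 1 the log2 fold changes were 1.59 for Mt1, 2.33 for Mt2, 0.57 for Hmox1 and 0.17 for Srxn1. Within replicates 3 and 4, which also leave it out, the log2 fold changes were 1.38 for Mt1, 2.19 for Mt2, 0.50 for Hmox1, 0.19 for Srxn1 and 1.91 for Cybb, in fits chosen after seeing the data. Nqo1, Gclc, Gclm and Sod2 had values between -0.28 and 0.07 over all 4 samples.

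Male active pain had the same form with another sample on top. Mt1 was at 62.0, 254, 27.4 and 10.2 CPM (3.95 ± 1.54, adjusted p = 0.62), Mt2 at 34.2, 283, 19.0 and 7.76 CPM (5.00 ± 1.76), and Srxn1 at 39.7, 130, 34.2 and 29.96 CPM (1.004 ± 0.69). Hmox1 was at 23.9, 46.4, 14.2 and 11.2 CPM (1.69 ± 0.81), and Cybb at 4.91, 8.20, 3.69 and 8.55 CPM (1.53 ± 0.45, adjusted p = 0.48). Replicate 2 was the highest for the first 4 genes, and it also had the highest sums of neutrophil markers (79.1 CPM against 3.6 to 10.7) and of macrophage markers (497.2 CPM) of its group. Its fibre markers summed to 121289 CPM against 167941 to 188182 CPM in the other 3, and mitochondrial genes held 5.97% of its reads against 8.14 to 12.6%. The part of these was not tested. Mt1, Mt2, Hmox1 and Cybb lay above all male controls in every sample, against 6.34% of all genes, and 3 of the 10 genes had an unadjusted p under 0.05, against 7.25%. Without replicate 2 the log2 fold changes were 2.55 for Mt1, 2.93 for Mt2 and 0.26 for Srxn1.

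Between active and sedentary males no gene of the 10 was called (0% of all genes) and none had an unadjusted p under 0.05, against 0.84% of all genes. The log2 fold changes of -1.83 ± 1.39 for Mt1, -1.82 ± 1.504 for Mt2, -0.73 ± 0.79 for Hmox1 and -0.50 ± 0.68 for Srxn1 became 2.35, 2.67, 1.12 and 0.84 when male sedentary pain replicate 1 was left out. No direction can be given for these 4 genes. Cybb had -0.44 ± 0.43.

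Whether the sexes differed in their response was tested directly, as the change in females minus the change in males. None of the 10 genes and no gene at all of 15103 was called for sedentary pain against control, for active pain against control or for active against sedentary pain (0% in each). The differences for sedentary pain were -1.23 ± 1.58 for Mt1, -0.73 ± 1.70 for Mt2, 1.35 ± 0.98 for Hmox1, 0.27 ± 0.78 for Srxn1 and 3.74 ± 1.08 for Cybb (adjusted p = 0.43). Cybb was the only gene of the 10 with an unadjusted p under 0.05 there and in active against sedentary pain (-3.89 ± 1.06, adjusted p = 0.23), where all genes reached it in 9.57% and 14.7% of cases. For active pain against control none of the 10 reached it, against 2.03% of all genes.

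The differences in Mt1 and Mt2 turned on male sedentary pain replicate 1. Without it the difference for sedentary pain was 2.95 for Mt1 and 3.75 for Mt2, the opposite sign, while Hmox1 had 3.21 and Cybb 3.94 with the sign kept, and that for active against sedentary pain was -4.59 for Mt1, -5.18 for Mt2 and -2.05 for Srxn1, with 5 of the 10 genes called. Without female sedentary replicate 1 the last comparison had 1 call. The share of all genes called without either sample is not given here, so these counts cannot be set against it. Within replicates 3 and 4, which lack both, the differences for sedentary pain were 3.39 for Hmox1, 1.22 for Srxn1 and 4.21 for Cybb, all 3 called, and 2.03 for Mt1 and 3.32 for Mt2, neither called.

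In control muscle the level per kilobase of annotated exon put Sod2 and Nqo1 first and Cybb last in both sexes. In females the mean was 22.4 CPM per kilobase for Sod2, 16.4 for Nqo1, 11.8 for Mt1, 10.2 for Txnrd1, 9.62 for Mt2, 8.84 for Srxn1, 4.14 for Hmox1, 2.51 for Gclc, 2.15 for Gclm and 0.525 for Cybb. Neighbours in this order overlapped over the 4 samples except Sod2 and Nqo1, Srxn1 and Hmox1, Hmox1 and Gclc, and Gclm and Cybb. The exon length of Mt1 covers its whole span of 1246 bases because of an unspliced transcript, against 588 for Mt2, and the places in this order depend on such annotated lengths.

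Between male and female controls none of the 10 genes passed the threshold, and 4 enzymes did not overlap. Nqo1 was at 33.5 to 43.8 CPM in male and 21.3 to 28.8 CPM in female controls (0.55 ± 0.19, adjusted p = 0.14). Gclc was at 12.5 to 15.9 against 8.41 to 11.1 CPM (0.62 ± 0.21, adjusted p = 0.14), Gclm at 15.1 to 22.5 against 12.5 to 14.6 CPM (0.44 ± 0.20) and Txnrd1 at 80.9 to 103 against 60.3 to 79.2 CPM (0.35 ± 0.17). All 4 had every male above every female control, as did 13% of all genes, and 3 of the 10 genes had an unadjusted p under 0.05, against 14.9%. Calls were made for 2.83% of all genes. Of the 6 adipocyte markers 2 were called lower in males, with a median of -2.29, and their sum was 209.6, 161.3, 2924.9 and 1263.0 CPM in female controls and 107.3 to 404.2 CPM in male controls; their part was not tested. When only the control groups were fitted 3 of the 10 genes were called, as were 1904 of all genes, against 427 in the main fit. Without male sedentary replicate 1 there was 1 call among the 10 genes. Mt1 and Mt2 had -1.36 ± 1.15 and -1.08 ± 1.25 and overlapped. Of the metal handling genes the zinc transporter Slc30a2 was higher in males by 4.55 ± 0.32, at 19.3 to 26.4 CPM against 0.61 to 1.14 CPM in females. Of the 29 other NRF2 targets tested 4 were called lower in males and none higher, with a median of -0.37: Gstm2 (-1.31 ± 0.20), Tkt (-3.80 ± 0.77), Mgst2 (-4.61 ± 1.04) and G6pdx (-2.36 ± 0.64). Of the 25 superoxide and peroxide removing genes Gpx3 (-1.73 ± 0.21) and Gpx8 (-1.40 ± 0.35) were called lower and none higher.

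How each gene varied among samples of the same group was compared with a macrophage score, the mean log2 CPM of the 12 macrophage markers, after subtracting group means (24 samples, permutation within groups, adjusted over the 10 genes). Hmox1 had a Pearson r of 0.84 and a Spearman rho of 0.78 (adjusted permutation p = 0.00025 and 0.0005), and Cybb had 0.83 and 0.86 (0.00025 and 0.0005). Mt2 had 0.64 and 0.57 (0.0398 and 0.0514) and Mt1 0.57 and 0.53 (0.0918 and 0.0742). Srxn1 had 0.42 and 0.19, Txnrd1 -0.02 and -0.17, and Nqo1, Gclc, Gclm and Sod2 had Pearson r between -0.50 and -0.14, none past the threshold. Samples with more macrophage RNA than their group thus had more Hmox1 and Cybb.

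Without the 2 samples farthest from the median score, male and female sedentary pain replicate 1, r was 0.76 for Hmox1, 0.82 for Cybb, 0.53 for Mt2 and 0.43 for Mt1. Within replicates 1 and 2 r was 0.92 for Hmox1, 0.85 for Cybb, 0.89 for Mt2 and 0.83 for Srxn1, and within replicates 3 and 4 it was 0.81, 0.81, 0.56 and 0.32. Without male sedentary pain replicate 1 alone, Mt2 had r = 0.45 and was no longer past the threshold (adjusted permutation p = 0.252), Mt1 had 0.33, Srxn1 0.07 and Txnrd1 -0.50, while Hmox1 had 0.80 and Cybb 0.87 (0.0012 and 0.0003). With the median of the markers in place of their mean, rho passed the threshold for Mt1 (0.62, adjusted permutation p = 0.0183) and Mt2 (0.67, 0.0138). With a prior count of 0.5 the rho of Mt2 passed it too (0.59, 0.0386). The r values of Hmox1 and Cybb were of like size in both pairs of replicates. Deviations were taken from the mean of the whole group, so a difference between the pairs stays in both values. They are thus not independent, and their likeness is no replication.

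**Figure D4:**
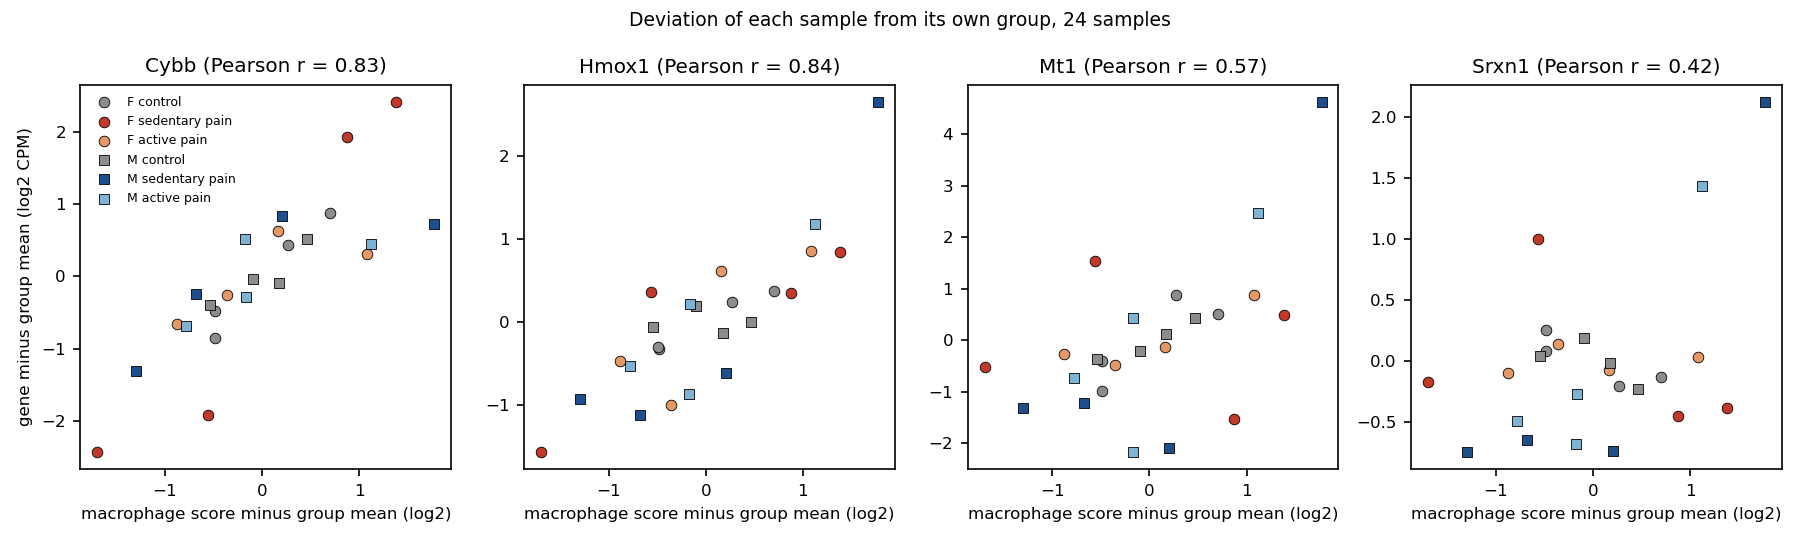
For Cybb, Hmox1, Mt1 and Srxn1, the deviation of each of the 24 samples from its group mean in log2 CPM (vertical axis) against the same deviation of the macrophage score (horizontal axis). Cybb (r = 0.83) and Hmox1 (r = 0.84) follow the score over all groups, while the highest Mt1 and Srxn1 values belong to male sedentary pain replicate 1 at the far right.

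Among the 45 pairs of the 10 genes the same deviations tied Mt1 to Mt2 most closely, with r = 0.98 and rho = 0.95 over the 24 samples. Mt2 and Hmox1 had r = 0.87 (adjusted permutation p = 0.0157), and Mt1 and Hmox1 0.83 (0.031). Txnrd1 and Srxn1 had r = 0.73 (0.031) and the subunit genes Gclc and Gclm r = 0.69 (0.0157). Mt1 and Gclm went in opposite directions, with r = -0.44 (adjusted permutation p = 0.031) and rho = -0.56 (0.0532). Their r was -0.49 without male sedentary pain replicate 1. Mt1 and Cybb had r = 0.09 and Srxn1 and Cybb -0.07. All pairs share the libraries and their depth. Without male sedentary pain replicate 1, r was 0.94 for Mt1 and Mt2, 0.71 for Mt2 and Hmox1, 0.50 for Txnrd1 and Srxn1, and 0.78 for Gclc and Gclm.

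The genes most like each member were looked up among the 15103 genes tested over all 24 samples, by the Pearson r of these deviations and as a description. For Mt1 they were Cd63, Tmbim1 and the pseudogene Cd63-ps (r = 0.97, 0.97 and 0.96), and reads of Cd63 and its pseudogene may not be separable. For Mt2 they were Card14, Pdpn and Cdkn1a (0.96 each), and for Hmox1 Sec61a1, Calr and Fxyd5 (0.96 each). Srxn1 was most like Mustn1, Midn and Ankrd10 (0.96, 0.95 and 0.95), and Txnrd1 most like Plekhm2, Flnc and Klhl30 (0.90, 0.86 and 0.86). Cybb was most like Rassf4, Lyz2 and Hpse (0.98, 0.98 and 0.97), of which Lyz2 is a lysozyme of macrophages and neutrophils. Nqo1, Gclc, Gclm and Sod2 had Prune1 (0.89), Arhgap24 (0.93), Psmc6 (0.83) and Dnajc5 (0.82) as their nearest genes.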

How the data were processed

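RNA was sequenced on stranded TruSeq libraries with paired reads of 100 bases, per the labels' protocols. The authors deposited 1 table of raw read counts per gene and sample. The submitters' processing notes name HISAT2 2.1.0, Salmon 0.9.1, featureCounts and DESeq2 1.24.0 with builds mm10 and GRCm38.p6, without their roles, and the count setting for strand is not given in the sources used here. Symbols and positions came from GENCODE vM21 (54409 and 54495 of 54532 IDs) and promoter windows from RefSeq on GRCm38.p6; coding sequences and the stretches before the TATAAA box were read from GENCODE transcripts and these windows.

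Counts were fitted with edgeR 4.0.16 (robust quasi-likelihood, TMM factors, filterByExpr with a minimum count of 10), each sex over its 12 samples and sex differences over all 24, with Benjamini-Hochberg adjustment over all genes tested. SE is the log2 fold change divided by the square root of the F statistic. Levels are CPM with TMM factors of all 24 samples, and relations use log2 CPM (prior count 2) and 100000 permutations within groups. The female fit was tested on simulated data for sedentary pain against control, and the other fits were not. The other genes named are those of lists by function: the 4 with the smallest p per list, every gene called where fewer than 6 were, and fixed regulators and oxidase subunits, in comparisons described; 1 gene of the oxidase list is not reported here. The 10 genes and all lists were chosen with earlier results of these data known. Alternatives were RLE scaling, DESeq2 1.42.0, no filter, other samples in the fit, a replicate block, a library-number term, 1 surrogate variable (sva 3.50.0), each sample left out and, chosen after seeing the data, each pair of replicates alone. Other tools were R 4.3.3, SciPy 1.17.1 and matplotlib 3.10.9.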

Additional observations from a re-analysis of the deposited data

Results flagged for a closer look

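In 8 of 60 sets of 4 samples 1 sample lay outside Dixon's 95% limit on the gap to the nearest sample as a share of the range. Chance gives about 1 in 20 only for independent values with a normal spread. CPM are skewed and the genes share samples, so 8 of 60 cannot be set against that share. The limit was not applied to log values. Of these 5 were male sedentary pain replicate 1: Mt1 at 1186 CPM (next 20.7), Mt2 at 1153 CPM (next 16.3), Hmox1 at 124 CPM (next 12.96), Srxn1 at 230 CPM (next 33.7) and Txnrd1 at 156 CPM (next 98.5). Male active pain replicate 2 was outside it for Mt2 at 283 CPM (next 34.2) and Srxn1 at 130 CPM (next 39.7), and female sedentary pain replicate 2 for Srxn1 at 153 CPM (next 68.2). These 3 samples also had the highest sums of neutrophil markers in male sedentary pain (300.6 CPM), male active pain (79.1 CPM) and female sedentary pain (259.4 CPM), and the part of these cells was not tested.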

How the results depend on the processing

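The 5 calls in female sedentary pain kept their direction under all 22 alternatives. Mt2 kept its call in all 22, Mt1 and Cybb lost it with 1 surrogate variable, and Hmox1 and Srxn1 lost it there and within replicates 1 and 2. Depth was at least 17612139 reads. The number of the 10 genes called changed as follows. For female sedentary pain against control it was 2 with 1 surrogate variable and 3 within replicates 1 and 2. For female active pain against control it was 3 with DESeq2 and 1 within replicates 3 and 4. For female active against sedentary pain it was 0 with no filter, with the 2 groups alone, with 1 surrogate variable and within replicates 1 and 2, 1 with all 24 samples in 1 fit and 3 within replicates 3 and 4. For male sedentary pain DESeq2 called 1. For the sex difference of sedentary pain against control 3 were called within replicates 3 and 4, and for that of active against sedentary pain 1 with DESeq2 and 2 within replicates 3 and 4. For male against female control 3 were called with the 2 groups alone and 1 with 1 surrogate variable. Leaving out 1 sample gave 5 to 6 calls for female sedentary pain against control, 0 to 5 for female active against sedentary pain, 0 to 5 for the sex difference of active against sedentary pain and 0 to 1 for male against female control. The cause of these changes was not tested; the fits within replicates hold fewer samples.

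Over all genes, 4867 were called for female sedentary pain against control, 2847 with the 2 groups alone, 61 with 1 surrogate variable and 238 within replicates 1 and 2. For female active against sedentary pain the 1730 calls became 3010 with DESeq2, 174 with no filter, 2745 with the library-number term and 0 with the 2 groups alone, with 1 surrogate variable and within replicates 1 and 2. For male against female control the 427 calls became 720 with DESeq2, 1904 with the 2 groups alone, 988 with 1 surrogate variable, 12 within replicates 1 and 2 and 885 within replicates 3 and 4. Where 0 genes were called, DESeq2 called 124 for female active pain, 270 and 127 for male sedentary and active pain against control, and 15, 3 and 111 for the sex differences of sedentary pain against control, active pain against control and active against sedentary pain. Within replicates 3 and 4 there were 155 calls for female active pain and 1349, 11 and 1222 for these sex differences, and 1 surrogate variable gave 5, 6 and 6 calls for female active, male sedentary and male active pain.

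These log2 values changed sign. In female sedentary pain Nqo1 had -0.077 within replicates 3 and 4, Bach1 0.41 there, and Sod2 -0.031 with no filter, -0.0011 with the replicate block, -0.25 with 1 surrogate variable and -0.31 within replicates 1 and 2. With 1 surrogate variable Gpx1 had -0.25 and Prdx5 -0.27 in that comparison, and Gpx1 0.12 in active against sedentary females, while Gclm had 0.010 in female active pain, Srxn1 -0.13 in male sedentary and -0.22 in male active pain, Txnrd1 -0.072 in male active pain and Hmox1 0.057 in active against sedentary males. In male sedentary pain Gclm had -0.0047 with no filter, -0.0089 with all 24 samples and -0.074 within replicates 3 and 4. In male active pain Nqo1 had -0.084 and Gclm -0.0063 within replicates 3 and 4 and Txnrd1 -0.038 within replicates 1 and 2. In active against sedentary males, within replicates 3 and 4, Mt1 had 0.23, Mt2 0.14 and Hmox1 0.19. The sex difference of sedentary pain was 0.22 for Mt1 and 0.87 for Mt2 with 1 surrogate variable, 2.03 and 3.32 within replicates 3 and 4, and -0.21 for Srxn1 within replicates 1 and 2.

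With 1 sample left out the ranges that crossed 0 were these. In female sedentary pain they were -0.11 to 0.25 for Gclm, -0.12 to 0.089 for Sod2, -0.11 to 0.024 for Keap1 and -0.25 to 0.12 for Bach1, in female active pain -0.18 to 0.0041 for Gclm and -0.091 to 0.0029 for Sod2, and in male sedentary pain -0.059 to 0.14 for Gclm. In active against sedentary males they were -3.23 to 2.35 for Mt1, -3.88 to 2.67 for Mt2, -1.26 to 1.12 for Hmox1 and -1.25 to 0.84 for Srxn1. For the sex difference of sedentary pain they were -1.94 to 2.95 for Mt1, -1.21 to 3.75 for Mt2 and -0.20 to 1.61 for Srxn1, and for that of active against sedentary pain -4.59 to 1.004 for Mt1, -5.18 to 1.38 for Mt2 and -2.05 to 0.048 for Srxn1.

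The labels do not pair same-numbered samples of different groups, which share the split into low and high library numbers. Their deviations correlated by 0.10 on average in females and 0.0065 in males, from -0.65 to 0.57 (0.057 to 0.39 between active and control females), and 0 of the 12 samples of either sex correlated best with its own number in both other groups. With the replicate block the calls among the 10 genes were 5 for sedentary females against control, 4 for active against sedentary females and 0 elsewhere.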
